A study of Mus musculus with 8 samples.

Results

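The genes described here are the matrix metalloproteinases Mmp2, Mmp3, Mmp9, Mmp10, Mmp11, Mmp13, Mmp14 and Mmp19 and the tissue inhibitors of metalloproteinases Timp1 and Timp2. They were taken by symbol, with every array probe that carried one of these symbols, and came to 15 probes of 10 genes among 25697 probes of 18138 gene symbols. A probe is a short DNA strand on the array that reads 1 transcript region, and its intensity is a brightness rather than a count. For 8 of the 10 genes at least 1 probe could be tested, with 12 of the 15 probes, while Mmp10 and Mmp19 stayed at background on every array.

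The cells were primary mouse aortic smooth muscle cells, grown out of pieces of several aortas whose outer layer had been removed, and kept before use in low glucose medium with 5% charcoal-stripped serum. They received a mimetic of moR-21, a small RNA cut from the miR-21 precursor next to the mature microRNA, or a scrambled oligonucleotide as control, both at 5 nM with the lipid reagent RNAiMAX. RNA was collected after 48 h from 3 samples of each treatment. In each treatment 1 sample was run on a pair of arrays, so that 6 samples gave 8 Illumina BeadChip arrays. Whether the 3 samples of a treatment were separate cultures of different animals is not given in the sources used here, nor are strain, sex or age for these cells, and the uptake of the mimetic was not analysed here.

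Matrix metalloproteinases are zinc-dependent enzymes that cut collagen, elastin, proteoglycans and other proteins outside the cell. Most are secreted as inactive proenzymes that another protease must open, and the Timp proteins block the active site by binding to it. In the arterial wall, smooth muscle cells use them to loosen the surrounding matrix when they migrate and divide, as after injury. Several family members, among them Mmp3, Mmp10 and Mmp13, lie side by side in 1 gene cluster and are classic targets of the transcription factor AP-1.

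A few short sequences show where these RNAs and motifs lie. The start of the miR-21 precursor is printed because the added RNA comes from this end, and the promoter stretches of the 3 clustered genes because each holds an AP-1 motif. All are from RefSeq for the mouse build GRCm38.p6, 5′ to 3′ on the gene's strand. In the precursor (Mir21a, chr11:86584129-86584158, minus strand) the first 17 bases lie before mature miR-21a-5p, and capitals mark the seed of that miRNA. In the promoters, all on the plus strand of chromosome 9, capitals mark the AP-1 motif TGANTCA, which begins 46 bases before the transcription start of Mmp3 (chr9:7445765-7445793), 63 before that of Mmp10 (chr9:7502268-7502296) and 35 before that of Mmp13 (chr9:7272468-7272496).
Mir21a: uguaccaccuugucggauAGCUUAUcagac
Mmp3: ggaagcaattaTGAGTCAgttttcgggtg
Mmp10: tagcacccatgTGAGTCAtgcttagtgac
Mmp13: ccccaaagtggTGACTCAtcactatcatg

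Windows from 250 bases before to 50 bases after the transcription start were read for 7 of the 10 genes, with none for Mmp2, Mmp9 and Mmp19. The AP-1 motif stood in the windows of Mmp3, Mmp10 and Mmp13 and in none of the windows of Mmp11, Mmp14, Timp1 and Timp2. Of all 32851 RefSeq windows of this length, 7.81% held it on either strand. The same 3 windows also held TATAAA, which 13.6% of all windows held. The Ets motif AGGAAG, searched on both strands as well, stood in the windows of Mmp3, Mmp13, Mmp14 and Timp1, against 35.4% of all windows. A match only says that these letters are present.

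Across the 8 arrays, between 10285 and 10512 probes were detected above the negative controls, and the median intensity lay between 102 and 109. Among smooth muscle markers, alpha-actin (Acta2) was bright, Smtn and Des were detected in both groups, Tagln was at background in the control samples, and Myh11, Cnn1 and Myocd were not detected on any array. A label field names endothelial cells. Of 6 endothelial markers, Pecam1, Cdh5, Kdr, Tek and Emcn were not detected, while Vwf was detected on all arrays at intensities of at most 131. Of 6 fibroblast markers, Dcn, Lum, Pdgfra and Col1a1 were well above background. Pi16 was dim, at intensities of at most 124, and was detected on 4 control arrays and 0 moR-21 arrays. Dpt was not detected. The arrays therefore showed mesenchymal cells with Acta2 but without several late contractile markers.

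Treatment with the moR-21 mimetic went with lower signals of Mmp13, Mmp14 and Mmp11 and a higher signal of Mmp3. A gene was called changed where its brightest tested probe differed by more than 1.3-fold with an adjusted p under 0.002, the cutoffs of the study. By this rule 3 of the 8 tested genes were lower, where 4.38% of all 8727 tested genes were lower, and 1 was higher, where 3.41% of all genes were higher. In both directions together this made 4 of 8 genes, against 7.79% of all genes, and 5 of 12 probes, against 6.96% of 11651 probes. The genes were chosen with earlier results of these data known, so these shares describe them and are no test of the family. The samples of both groups did not overlap for 6 of the 8 genes, while 46.3% of all tested genes showed such a separation. Read over the 8 genes, the median log2 fold change (log2 change in short) was 0.05 and the median of its size was 0.324, against 0.01 and 0.0973 over all tested genes.

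**Figure D1:**
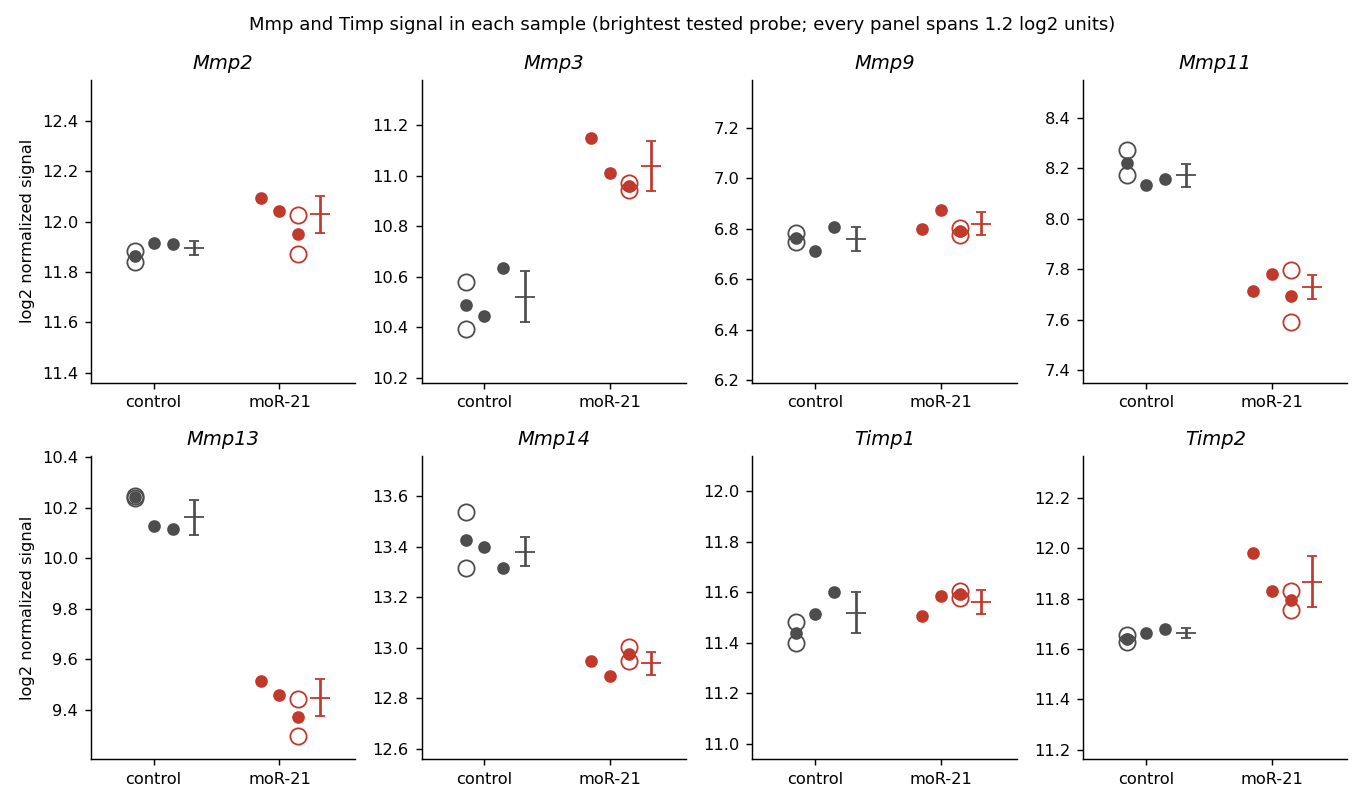
Log2 normalized signal of the brightest tested probe of each gene in the 3 control samples (grey) and the 3 moR-21 samples (red). Filled points are samples, open circles the 2 arrays of a repeated sample, and bars the mean ± SD of 3 samples. Every panel spans the same 1.2 log2 units, and Mmp13, Mmp14 and Mmp11 are seen below, Mmp3 above, their control samples.

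The largest change among these genes was that of Mmp13, the main collagenase of mice, which cuts fibrillar collagens. Its bright probe (ILMN_2737685; gene at chr9:7272514-7283333) read 10.24, 10.13 and 10.12 on the log2 scale in control samples 1, 2 and 3, and 9.52, 9.46 and 9.37 in moR-21 samples 1, 2 and 3. All moR-21 samples thus lay below all control samples, with a gap wider than the range of either group. The signal was 1.64-fold lower (log2 fold change -0.72, SE 0.0535, 95% confidence interval -0.83 to -0.60, limma adjusted p = 2.36e-07), the 85th lowest change of 8727 genes.

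The other probes of Mmp13 carried little signal. ILMN_1249336 rose above background on 1 control array only, with a log2 change of -0.07 (limma adjusted p = 0.357) and overlapping samples. ILMN_2799267 was not detected on any array and was not tested. The fall of Mmp13 therefore rests on 1 of its 3 probes, the others being at or near background.

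Mmp3, or stromelysin-1, has a broad range of matrix substrates and opens the proenzymes of other family members. In contrast to Mmp13, its signal was higher after moR-21. The brightest probe (ILMN_2753809; gene at chr9:7445822-7455975) read 10.49, 10.44 and 10.63 in the control samples and 11.15, 11.01 and 10.96 in the moR-21 samples. The groups did not overlap, and the log2 fold change was 0.52 (1.43-fold, SE 0.0615, 95% confidence interval 0.39 to 0.65, limma adjusted p = 1.94e-05), the 117th highest of 8727 genes.

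All 3 probes of Mmp3 were detected on all 8 arrays and pointed upwards. ILMN_2704576 read 9.85, 9.78 and 9.81 in the control samples and 10.56, 10.26 and 10.32 in the moR-21 samples, a log2 change of 0.56 (limma adjusted p = 1.76e-05) that was called as well. ILMN_2899041 read 9.63, 9.50 and 9.74 in the control samples and 9.88, 9.88 and 10.10 in the moR-21 samples, again without overlap. Its log2 fold change of 0.33 (1.26-fold, limma adjusted p = 0.00180) passed the p cutoff but missed the fold cutoff.

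Mmp10, or stromelysin-2, a close relative of Mmp3 from the same cluster, could not be compared. Its probe ILMN_2619952 had detection p-values between 0.127 and 0.513 and intensities of 95.7 to 107, which is the level of the negative controls. Its transcript was not detectable with this probe in either group.

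Mmp11, or stromelysin-3, is unusual in being opened inside the cell by the protease furin and in cutting few matrix proteins. Its only probe (ILMN_2696711; chr10:75923221-75932502) read 8.22, 8.13 and 8.16 in the control samples and 7.71, 7.78 and 7.69 in the moR-21 samples. The groups were clearly apart, with a signal 1.36-fold lower after moR-21 (log2 fold change -0.44, SE 0.0478, 95% confidence interval -0.54 to -0.34, limma adjusted p = 8.22e-06).

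Mmp14 is anchored in the cell membrane, where it cuts collagen and opens the proenzyme of Mmp2. Its probe (ILMN_1240726; chr14:54431598-54442456) read 13.43, 13.40 and 13.32 in the control samples and 12.95, 12.89 and 12.98 in the moR-21 samples. Its 4 control arrays and 4 moR-21 arrays had raw intensities between 7607 and 12492. The signal was lower in every moR-21 sample, by 1.36-fold (log2 fold change -0.44, SE 0.0488, 95% confidence interval -0.55 to -0.34, limma adjusted p = 9.77e-06). Without background correction this was about the change of Mmp11, whose raw intensities were only 197 to 319. With normexp background correction the log2 changes were -0.45 for Mmp14 and -0.67 for Mmp11.

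Mmp2, or gelatinase A, degrades denatured collagen and type IV collagen and is a proenzyme that Mmp14 opens. Its probe (ILMN_2678218; chr8:92827290-92853421) read 11.86, 11.92 and 11.91 in the control samples and 12.09, 12.04 and 11.95 in the moR-21 samples. The moR-21 samples lay above the control samples, but moR-21 sample 3 was close to them. The log2 fold change of 0.13 (SE 0.0496, 95% confidence interval 0.03 to 0.24, limma adjusted p = 0.0532) did not pass the cutoffs. The interval, which is not adjusted for the number of probes, lay above 0.

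Mmp9, or gelatinase B, is the inducible gelatinase of inflamed vessels. Its probe (ILMN_2711075; chr2:164940326-164955850) was above background on 1 of 8 arrays, a moR-21 array, with raw intensities from 102 to 116. It read 6.76, 6.71 and 6.81 in the control samples and 6.80, 6.87 and 6.79 in the moR-21 samples, which overlapped (log2 fold change 0.06, limma adjusted p = 0.380). Mmp19 (ILMN_2595908; chr10:128790910-128800827), a secreted enzyme that cuts basement membrane proteins, was not detected on any array, with detection p-values of 0.0125 to 0.598. At background a difference in either gene was not detectable.

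Neither of the inhibitors was called. Timp1 (chrX:20870166-20874737), which blocks most secreted family members, was read by a pair of probes. ILMN_2769918 read 11.44, 11.51 and 11.60 in the control samples and 11.50, 11.58 and 11.59 in the moR-21 samples, a log2 fold change of 0.04 (95% confidence interval -0.07 to 0.15, limma adjusted p = 0.598). ILMN_3103896 gave 0.03 (95% confidence interval -0.09 to 0.15, limma adjusted p = 0.727). The samples overlapped at both probes, and the intervals leave no room for a change of 1.3-fold in either direction.

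Timp2 (chr11:118301061-118355411) inhibits the active enzymes and also forms the complex in which Mmp14 opens the Mmp2 proenzyme. Its probe (ILMN_2712867) read 11.64, 11.66 and 11.68 in the control samples and 11.98, 11.83 and 11.79 in the moR-21 samples. The moR-21 samples were all higher, and they spread more widely than the control samples. The log2 fold change of 0.21 (1.15-fold, SE 0.0536, 95% confidence interval 0.09 to 0.32, limma adjusted p = 0.00862) met neither cutoff of the call.

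**Figure D2:**
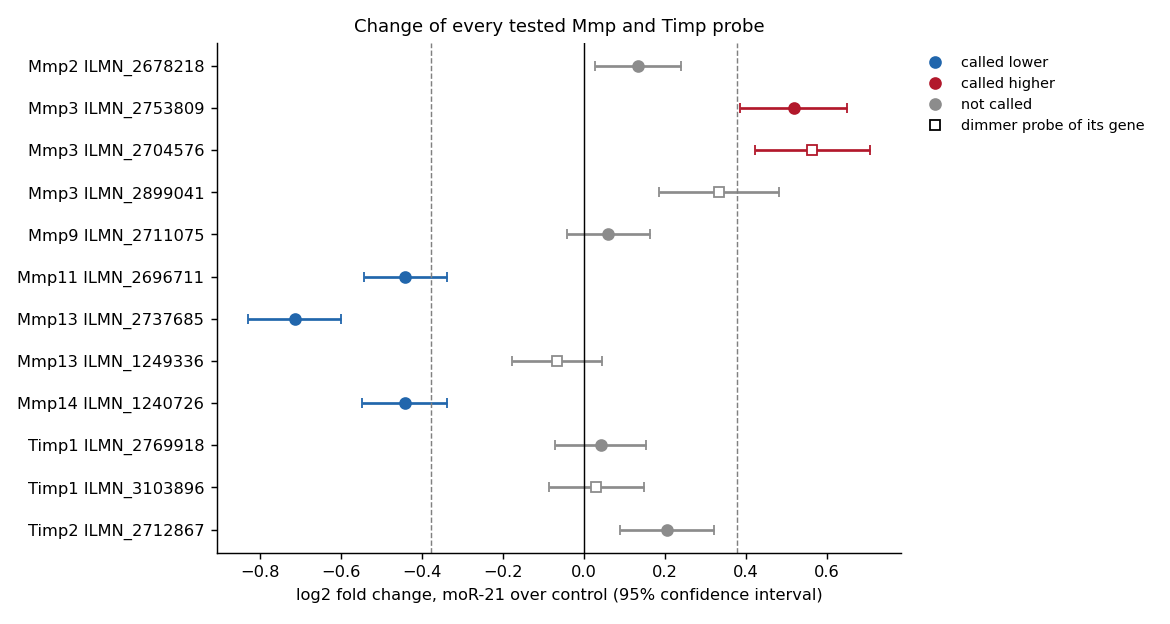
Log2 fold change of each of the 12 tested probes, moR-21 over control, with 95% confidence intervals from limma. Dashed lines mark a 1.3-fold change, filled circles the brightest probe of a gene and open squares its dimmer probes. The 3 Mmp3 probes lie to the right of 0, while Mmp13 lies to the left at its bright probe and near 0 at its dim one.

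The pair of arrays of 1 sample shows the spread between repeat arrays beside these differences. The sample titles call these arrays replicates A and B and do not say which steps were repeated. Over the 12 tested probes the arrays of control sample 1 differed by a median of 0.0555 log2 units, and those of moR-21 sample 3 by 0.0552. The widest gap was 0.222, for Mmp14 in control sample 1, followed by 0.204 for Mmp11 in moR-21 sample 3. Each of these gaps is smaller than the change of the gene between the groups. For Mmp2 the arrays of moR-21 sample 3 differed by 0.155, more than its change of 0.13, and in control sample 1 both Timp1 probes differed by more than their changes, by 0.0823 and 0.0579.

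Mmp13 and Mmp3 lie in the same gene cluster on chromosome 9 and changed in opposite directions. The shift of Mmp3 relative to Mmp13 within a sample was 1.23 log2 units (2.35-fold) from control to moR-21, and all 3 moR-21 samples lay on 1 side of the control samples. The exact two-sided permutation test gave p = 0.1, the smallest that 3 against 3 samples allow, for a pair of genes chosen with their directions known. Of the 10 Mmp genes that RefSeq places in this cluster, 4 were tested. Mmp1a, an interstitial collagenase gene that starts 191.6 kb from the start of Mmp13 and next to Mmp3, had a log2 change of 0.00 (95% confidence interval -0.10 to 0.10, limma adjusted p = 0.971). Mmp27 was above background on all 4 control arrays and on 0 of 4 moR-21 arrays, with a log2 change of -0.15 (limma adjusted p = 0.0170), which was not called. The cluster thus held 1 gene called lower, 1 called higher and a pair not called.

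**Figure D3:**
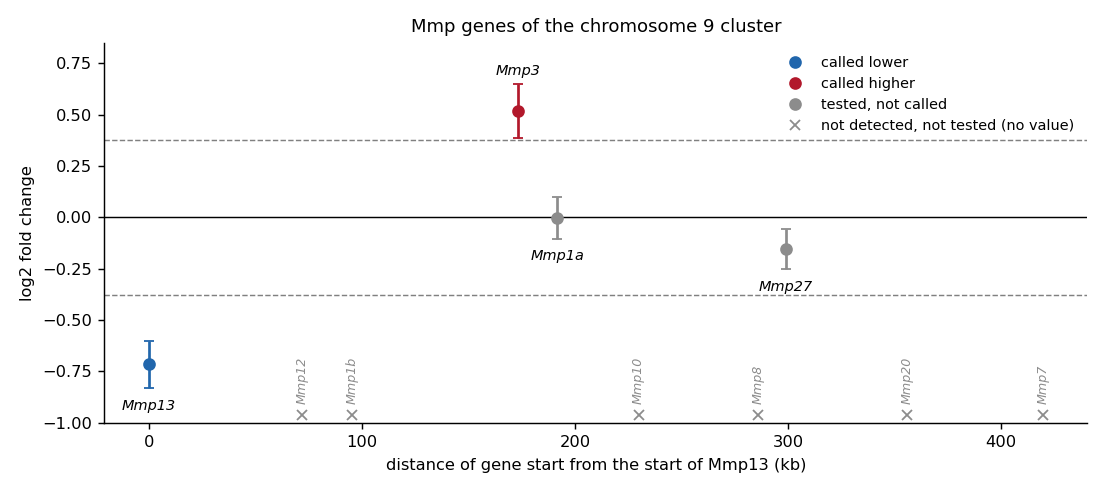
Log2 fold change (moR-21 over control, 95% confidence interval) of the Mmp genes of the chromosome 9 cluster against the distance of each gene start from that of Mmp13 in kb. Crosses at the lower edge mark genes not detected and carry no value. Mmp13 at 0 kb is below the dashed line of a 1.3-fold fall and Mmp3 at 173.3 kb above that of a rise.

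The rest of the family showed no call, but the members had been chosen with earlier results of these data known. The contrast with them may therefore reflect that choice. Outside the 8 metalloproteinases named above, the array held 14 Mmp genes, of which 6 were tested. By limma 0 were called, against 7.79% of all tested genes (1, Mmp27, at an unadjusted p under 0.05). Their changes lay between -0.15 and 0.05 with a median of -0.03. Mmp15, Mmp24, Mmp27 and Mmp28 were each at background on some arrays. Mmp1a and Mmp16 were dim, with raw intensities of 128 to 152 and 150 to 168. Signal near background limits what could be detected in these genes. Mmp16, a membrane-type enzyme like Mmp14 that was detected on all arrays, had a log2 change of -0.05 with overlapping samples.

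Of the other inhibitors, 2 of 7 genes on the array were tested. Timp3, the Timp that stays bound to the matrix, was called higher. Its brightest probe read 9.26, 9.24 and 9.03 in the control samples and 9.81, 9.71 and 9.69 in the moR-21 samples, a log2 fold change of 0.56 (1.47-fold, limma adjusted p = 1.18e-05), while a dimmer Timp3 probe gave 0.02 (limma adjusted p = 0.767). Reck, a membrane-anchored inhibitor of Mmp2, Mmp9 and Mmp14 and a known miR-21 target, had a log2 change of 0.21 (limma adjusted p = 0.00406) and was not called, although its moR-21 samples were all above its control samples.

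The list of the plasminogen system and proprotein convertases gave no call. Of its 12 genes on the array, 6 were tested and 0 were called by limma, against 7.79% of all tested genes. At an unadjusted p under 0.05 there was 1, Furin. Furin, which opens Mmp11 and Mmp14, had a log2 change of -0.29 (1.22-fold lower, limma adjusted p = 2.26e-04) that missed the fold cutoff, and a dimmer Furin probe gave -0.04. Plau, the urokinase activator of plasminogen, had 0.10 (limma adjusted p = 0.129) and its receptor Plaur 0.05 (limma adjusted p = 0.469). Both were dim, with raw intensities of 130 to 161 for Plau and 116 to 134 for Plaur, so a change could be understated. Plat, the tissue activator, was not detected with the probe present.

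Among the related Adam and Adamts proteases, 9 of 14 genes were tested and 1 was called. This share of 11.1% was close to the 7.79% of all tested genes. Adam12, which cuts membrane-bound growth factors, read 8.25, 8.11 and 8.32 in the control samples and 7.62, 7.55 and 7.50 in the moR-21 samples (log2 fold change -0.67, limma adjusted p = 9.05e-07). Without background correction this fall was of similar size to that of Mmp13, at lower raw intensities (180 to 326, against 640 to 1369). Adam17, the sheddase of tumour necrosis factor, had -0.35 (limma adjusted p = 7.16e-05) and missed the fold cutoff. The list had a median log2 fold change of -0.15.

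Of 12 tested AP-1, Ets and related regulators of Mmp promoters, 1 was called, a share of 8.33% close to that of all genes. Junb, an AP-1 subunit, read 8.05, 8.22 and 8.01 in the control samples and 7.74, 7.75 and 7.63 in the moR-21 samples (log2 fold change -0.39, limma adjusted p = 1.85e-04), and the call was lost without control sample 2, where 0 of the list were called, and likewise without moR-21 sample 3. Jun, another subunit, had 0.30 and Ets1 0.26, while Egr1 had -0.30, all short of the fold cutoff. In the list of cytokines that induce Mmp genes and their receptors, Il1a, Il1b, Il6, Tnf and Osm were not detected. Of 7 tested genes in that list 1 was called, a share of 14.3% against 7.79% of all tested genes. It was Osmr, the oncostatin M receptor, which was higher (log2 fold change 0.49, limma adjusted p = 4.71e-04). The call was lost without control sample 2 and likewise without moR-21 sample 1, with 0 called in each case.

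Of 10 tested surface partners and clearance receptors, 1 was called, a share of 10% close to the 7.79% of all tested genes. Cd44, a hyaluronan receptor to which Mmp9 and Mmp14 bind, was higher (log2 fold change 0.41, limma adjusted p = 5.71e-05), and 0 of the list were called without control sample 3. Bsg, known as an inducer of Mmp genes, had a log2 change of -0.04 at a dim probe, with raw intensities of 126 to 143. Lrp1, which clears proteases and their inhibitors from the cell surface, was not called.

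Among the proteins that these enzymes cut, the calls lay in 1 direction, in a list also chosen with earlier results of these data known. Of 20 tested matrix substrates, 8 were called lower and 0 higher by limma (14 lower and 0 higher at an unadjusted p under 0.05). Over all tested genes, 4.38% were called lower, and 21.1% were lower and 23.4% higher at an unadjusted p under 0.05. A negative log2 fold change was found for 18 of the 20, against 48.2% of all tested genes, and the median was -0.25 against 0.01 over all tested genes. The largest fall was that of Sparc, a collagen-binding matrix protein, at -1.43 (2.70-fold lower, limma adjusted p = 4.26e-10). It was followed by fibrillin-1 (Fbn1, -0.86), the basement membrane collagen chain Col4a2 (-0.60), lumican (Lum, -0.56), Col18a1 (-0.48, with -0.03 at a dimmer probe) and Col1a2 (-0.47). The fibrillar collagen chain Col1a1 had -0.20 and was not called, and Col3a1 had 0.11. Leaving out 1 sample at a time, between 6 and 8 of the list were called.

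**Figure D4:**
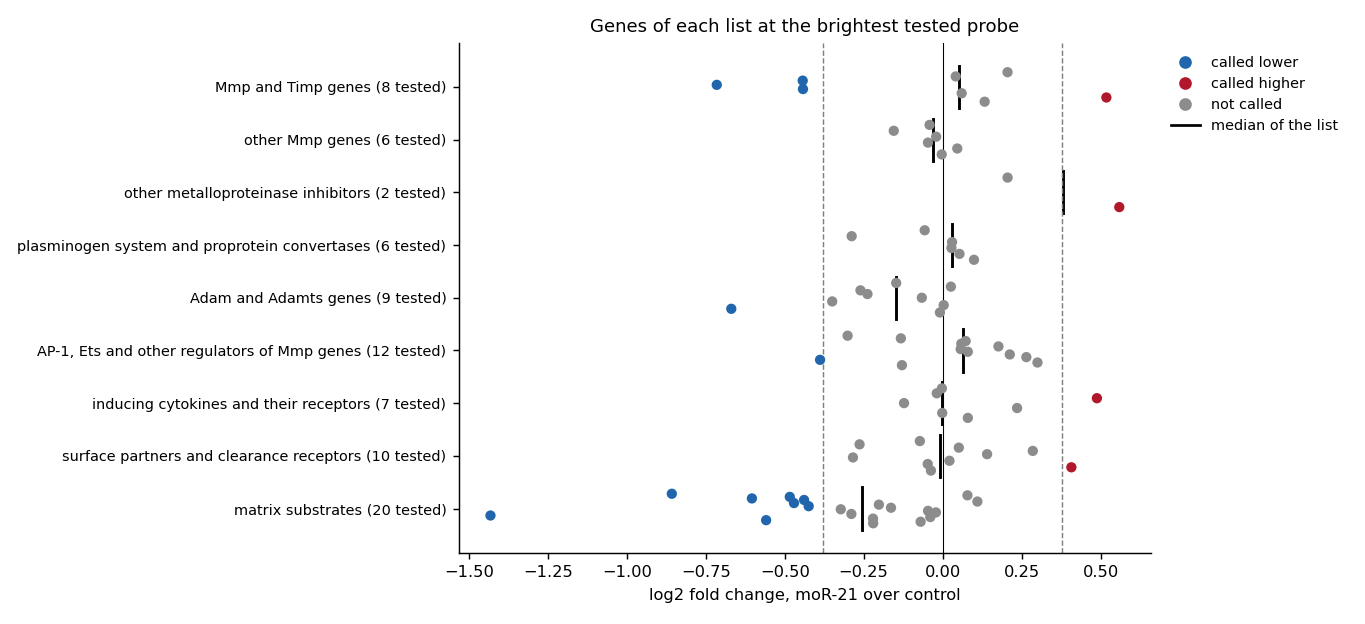
Log2 fold change (moR-21 over control) of each tested gene at its brightest probe, with 1 row per gene list and a black line at the list's median. Dashed lines mark a 1.3-fold change, and points are spread vertically only to separate them. The Mmp and Timp genes hold calls on both sides, whereas the 8 called matrix substrates all lie on the lower side.

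Markers of other cell types also differed between the groups. The summed signal of 5 tested fibroblast markers was 16511 to 17326 in the control samples and 13708 to 14710 in the moR-21 samples. Of the 5, 1 was called lower, Lum. Dcn, Lum and Col1a1 also stand among the matrix substrates above, read at the same probes, so this sum is no separate observation. The summed signal of the 2 tested mesothelial markers was 771 to 780 in the control samples and 402 to 416 in the moR-21 samples. Upk3b was called lower (log2 fold change -1.24), while Krt19 had -0.13 with overlapping samples (limma adjusted p = 0.115). The separation of this sum thus rests on Upk3b. Msln, Krt8 and Krt18 were not detected. The 5 tested smooth muscle markers summed to 9953 to 10335 in the control samples and 12700 to 13552 in the moR-21 samples, with Acta2, which makes up most of the sum, called higher at 0.40. Their members went different ways. Des had -0.38 with separate samples (limma adjusted p = 8.60e-05), just short of the fold cutoff, and Smtn had -0.05. Tagln, detected on 0 control arrays and 4 moR-21 arrays, had 0.20 with separate samples (limma adjusted p = 0.00367). Lmod1, near background, had 0.05 with separate samples, and neither Tagln nor Lmod1 was called. These sums separate the groups as Mmp13, Mmp14 and Mmp11 do, and their part in the changes was not tested. In RNA from whole cultures, fewer cells that express a gene and less of its RNA per cell cannot be told apart. Macrophage markers summed to 1987 to 2045 in the control samples and 1963 to 2048 in the moR-21 samples, with Lyz and Lyz2 called higher and Cd68, Emr1 and Ptprc not detected. Cd14, the macrophage marker with the largest part in that sum, had -0.27 with separate samples (limma adjusted p = 3.38e-04) and missed the fold cutoff. The endothelial Vwf and the neutrophil Camp were dim and not called.

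The calls of Mmp13, Mmp3, Mmp11 and Mmp14 were each kept under every normalization, background correction, filter, array choice and left-out sample that was tried, and only a stricter fold cutoff of 1.5 ended any of them, leaving Mmp13. Over these settings Mmp13 ranged from -0.79 to -0.67, Mmp3 from 0.46 to 0.57, Mmp14 from -0.49 to -0.38 and Mmp11 from -0.67 to -0.39 on the log2 scale. The far end for Mmp11 came from the normexp background correction, which widens the changes of dim probes. Some calls came close to the cutoffs. With normexp the limma adjusted p was 0.00197 for Mmp14 and 0.00188 for Mmp3, against a cutoff of 0.002. With median scaling the log2 change of Mmp14 was -0.384, where 1.3-fold is 0.379. Timp2 stayed between 0.15 and 0.24 and Mmp2 between 0.10 and 0.17.

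**Figure D5:**
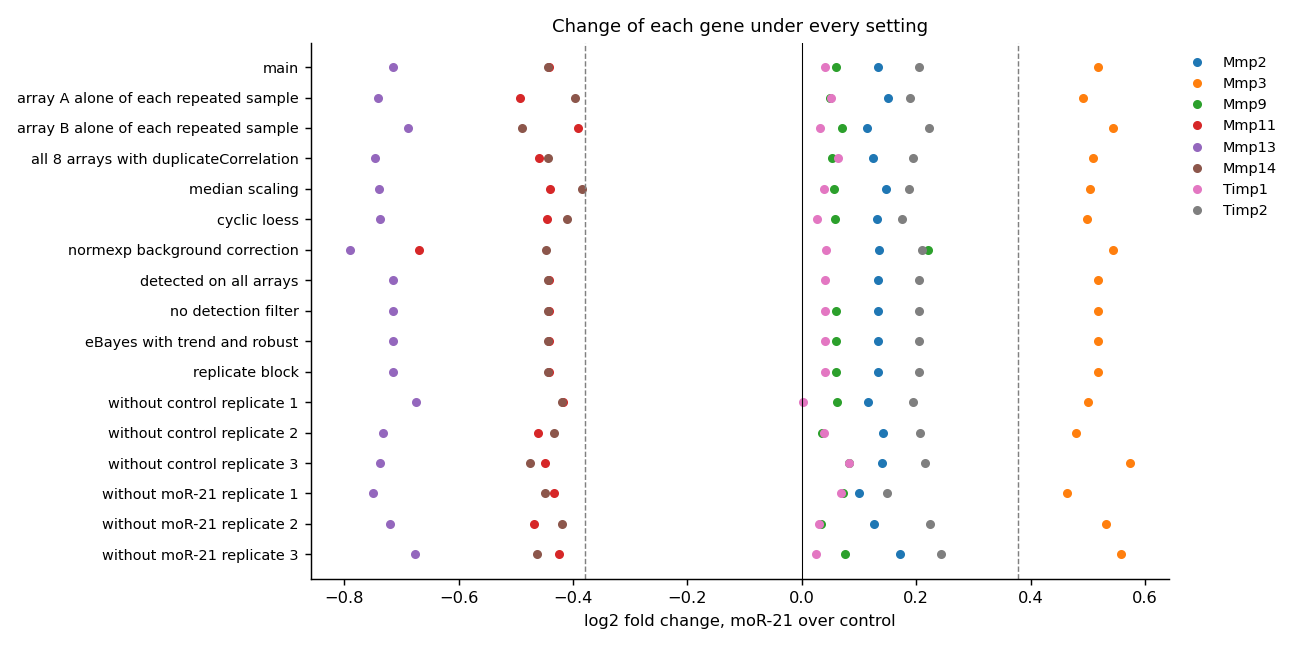
Log2 fold change (moR-21 over control) of the brightest probe of each of the 8 tested genes, with 1 row per processing setting or left-out sample. Dashed lines mark a 1.3-fold change. Mmp13, Mmp14 and Mmp11 stay to the left of the left line and Mmp3 to the right of the right line in every row.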

How the data were processed

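The authors deposited non-normalized Illumina probe intensities of 8 arrays, read in BeadStudio, each with a detection p-value against the array's negative controls; the submitters' processing notes name lumi. The array design is given as MouseRef-8 in 1 source and also as MouseWG-6 in another. Of the deposited value columns, 0 lacked a sample. The intensities, on which array number and signal over background limit the precision, were quantile normalized and log2 transformed without background subtraction, and arrays of 1 sample were averaged. Probes with a detection p under 0.01 on at least 1 array (11651 of 25697) were fitted with lmFit and eBayes (limma 3.58.1, R 4.3.3) on 3 against 3 samples, with Benjamini-Hochberg adjustment over all of them, after the script was tested on simulated data. Calls needed over 1.3-fold and adjusted p under 0.002, and a gene was read at its brightest tested probe. A fold change is a ratio of intensities, which understates change near background. Scan dates and slides were not given in the sources used here. The p-values measure the spread between samples, which may be technical.

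Every listed member is named, with up to 6 called genes of each list by size of change, and Timp3, Reck, Plau, Plaur and Plat in any case (another gene of this rule is not reported here); Furin, Adam17, Jun, Ets1, Egr1, Col1a1, Col3a1, Bsg, Lrp1, Mmp1a, Mmp16 and Mmp27 were added after their values were seen. The members and lists were chosen with earlier results of these data known. Alternatives were single arrays, duplicateCorrelation on 8 arrays, median scaling, cyclic loess, normexp (offset 16), other filters, eBayes with trend and robust, a replicate block, other cutoffs (adjusted p under 0.05 without a fold cutoff, fold over 1.5) and leaving out each sample. Motifs were searched with Python 3.11.15.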

Additional observations from a re-analysis of the deposited data

How the results depend on the processing

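Of the 8 tested Mmp and Timp genes, 4 were called by limma under every setting except the changed cutoffs: 5 at an adjusted p under 0.05 without a fold cutoff, where Timp2 joined, and 1 with a fold over 1.5, where Mmp13 alone was left. Over all probes, 811 calls became 3943 and 260 under these cutoffs. Leaving out 1 sample at a time gave 4 member genes each time and 772 to 851 probes. The second Timp1 probe (ILMN_3103896) turned sign, to -0.0134 without control sample 1 and -0.0128 without moR-21 sample 2, and ranged from -0.0134 to 0.0598 when 1 sample was left out. The Mmp3 probe ILMN_2899041 passed the fold cutoff, at 0.39, without control sample 3. The call of Osmr was also lost with median scaling, with normexp and without a filter, and that of Junb with array B alone and with normexp, where the 1 call among the regulators was a higher one. With normexp, Mmp9 reached 0.22 and the dim Mmp13 probe -0.21, neither called. The cause was not tested. Samples with the same number had deviations that correlated at 0.187, 0.0441 and 0.0597, and samples with different numbers at -0.129 to 0.0693. These values do not settle whether the numbers pair the samples, and the main fit took them as unpaired. A fit with the replicate block called 4 member genes and 815 probes. The shift of Mmp3 relative to Mmp13 stayed between 1.18 and 1.33 under the scalings, array choices and left-out samples tried. Signal over background limits Mmp9, Mmp10, Mmp19 and the dim Mmp13 probes.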
